A study of Mus musculus with 54 samples.

Results

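The mitochondrial carrier family was described in the liver of mice exposed to di-isononyl phthalate (DINP), a plasticiser made of branched isomers. The members were the genes whose symbol was Slc25a followed by a number, with Slc25a20 left out by the rule that defined the set. Of 41 such symbols 40 were members, among 20162 entries of the expression table, and 37 of the 40 had a mean value of at least 1 over all mice and entered the tests. The remaining 3 members (Slc25a29, Slc25a35 and Slc25a53) are given by level only. Male C57BL/6J mice were fed a high-fat diet from the age of 8 weeks and received DINP for 20 weeks in gelatin pellets at 1.5 mg/kg (13 mice), 15 mg/kg (13 mice) or 150 mg/kg (14 mice) of body weight per day, while 14 control mice received pellets without DINP. The 54 mice were housed singly and all were on the high-fat diet, and whether a difference depends on that diet was not tested. RNA came from the medial liver lobe, a bulk tissue in which fewer cells of a type and less RNA per cell cannot be told apart.

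SLC25 proteins sit in the inner membrane of mitochondria, with a few in other organelles, and exchange nucleotides, phosphate, amino acids, carboxylates, cofactors, iron and glutathione between the cytosol and the matrix. In liver they feed oxidative phosphorylation, gluconeogenesis, the urea cycle, and the export of citrate for lipid synthesis. The proteins are encoded in the nucleus and inserted into the inner membrane by the translocases of the outer and inner membrane.

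The promoters of 3 members are shown because their transcripts differed between doses in the results that follow. Slc25a22, the glutamate carrier, lies at chr7:141429744-141437892 on the minus strand of GRCm38. Slc25a34, a carrier whose substrate is not settled, lies at chr4:141618824-141623821 on the minus strand, and Slc25a42, a carrier of coenzyme A and adenine nucleotides, lies at chr8:70184340-70212305 on the minus strand. Each RefSeq window of build GRCm38.p6 runs 5′ to 3′ from 250 bases before to 50 bases after an annotated start. Capitals mark matches on either strand to the nuclear receptor half-site AGGTCA, to the GC box, whose letters are GGGCGG, or to the CCAAT box. The E-box and the TATA box were searched as well and had no match in these windows. Slc25a22 has 3 annotated starts and the window of the most upstream one is printed.
Slc25a22 (chr7:141437825-141438124, minus strand): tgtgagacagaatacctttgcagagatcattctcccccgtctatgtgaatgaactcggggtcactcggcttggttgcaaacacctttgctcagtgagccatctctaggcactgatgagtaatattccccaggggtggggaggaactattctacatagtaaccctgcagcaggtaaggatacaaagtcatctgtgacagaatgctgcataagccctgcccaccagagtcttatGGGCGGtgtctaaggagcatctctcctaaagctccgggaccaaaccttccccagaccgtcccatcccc
Slc25a34 (chr4:141623785-141624084, minus strand): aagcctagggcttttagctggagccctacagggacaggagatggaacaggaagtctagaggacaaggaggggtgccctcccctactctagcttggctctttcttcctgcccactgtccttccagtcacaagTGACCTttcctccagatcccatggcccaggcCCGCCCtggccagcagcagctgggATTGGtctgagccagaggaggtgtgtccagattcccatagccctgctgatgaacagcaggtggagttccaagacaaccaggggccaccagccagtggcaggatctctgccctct
Slc25a42 (chr8:70212232-70212531, minus strand): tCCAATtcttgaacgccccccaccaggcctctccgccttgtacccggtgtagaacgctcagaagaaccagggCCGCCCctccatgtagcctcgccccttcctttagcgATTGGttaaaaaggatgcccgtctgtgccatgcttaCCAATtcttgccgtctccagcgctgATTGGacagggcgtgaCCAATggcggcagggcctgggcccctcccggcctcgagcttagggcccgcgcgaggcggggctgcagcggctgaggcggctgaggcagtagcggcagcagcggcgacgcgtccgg
The Slc25a22 window held 1 GC box, 18 bases before the start. Slc25a34 held the half-site 119 bases before the start, read on the other strand as TGACCT, together with 1 GC box and 1 CCAAT box. Slc25a42 held 1 GC box and 5 CCAAT boxes and no half-site. The 31 members in the table had 41 windows, and 4 of these held AGGTCA (1 each of Slc25a34, Slc25a39, Slc25a45 and Slc25a47), against 16.3% of 32851 windows of all genes. No member held AGGTCA repeated on the same strand with 1 base between the copies, which was present in 0.0396% of all windows. The GC box was present in 35 of the 41 windows and in 35.7% of all windows. These matches are letters in the sequence and not evidence of binding.

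The values were on the TPM scale (reads per transcript length, brought to a common sum per library), rounded to whole numbers and then scaled per library, so a value of 1 is close to 1 TPM. Each value was compared as log2(value + 1) with limma over 11431 entries with a mean of at least 1. A gene is said here to have risen or fallen only when the Benjamini-Hochberg adjusted p was under 0.05, and the DEG threshold added a log2 fold change (log2FC) beyond 0.5. Totals per library ranged from 747258 to 1076439, and the number of reads behind them is not known. All 8 hepatocyte markers were tested, and their summed value was 23535 to 44971 in control, 30863 to 45080 at 1.5, 29702 to 48124 at 15 and 32422 to 44658 at 150 mg/kg. Across all genes other than the members, 7 libraries stood apart from the rest. Their mean correlation with the other libraries of all 4 groups lay more than 0.01 below the median library (0.952). They were replicates 5 to 9 of the 15 mg/kg group and control replicates 8 and 9. This limit was chosen after the data had been seen, so the members' calls at 15 mg/kg are given both with all mice and without those 7 libraries. The highest mean correlation among the 7 was 0.9413 and the lowest among the rest 0.9439. Since the other groups enter this correlation, leaving out 5 of 13 mice at 15 mg/kg can by itself shrink differences of that group. A call lost without these libraries is therefore not shown to be absent in the other mice.

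In level, Slc25a39 led the family with a mean of 644 ± 94.8 (SD, n = 54), which was 28.0% of the summed value of all 40 members. It was followed by Slc25a47 at 322 ± 77.6, Slc25a5 at 268 ± 90.6, Slc25a3 at 205 ± 19.6 and Slc25a13 at 162 ± 39.5. These 5 members made up 69.5% of the sum. The ranges of neighbours among these 5 overlapped over the 54 mice, while the lowest Slc25a39 value (407) was above every value of Slc25a3 (highest 255) and Slc25a13 (highest 249). Slc25a22 ranked 9 with a mean of 70.2, Slc25a42 ranked 20 with 10.3 and Slc25a34 ranked 36 with 1.75. A further 17 members had means between 1 and 10, Slc25a34 among them, and together held 3.04% of the sum. The sum itself was 2246 ± 135 in control mice (n = 14), 2304 ± 116 at 1.5 (n = 13), 2264 ± 274 at 15 (n = 13) and 2390 ± 158 at 150 mg/kg (n = 14), and the ranges of all 4 groups overlapped. The median library total was 964762 in control, 953524 at 1.5, 968701 at 15 and 1003642 at 150 mg/kg. Whether the sum follows these totals was not tested. Levels of different genes are set side by side on a scale per transcript length, although the library method reads transcript ends, so the order rests on the lengths that the authors' pipeline used.

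**Figure D1:**
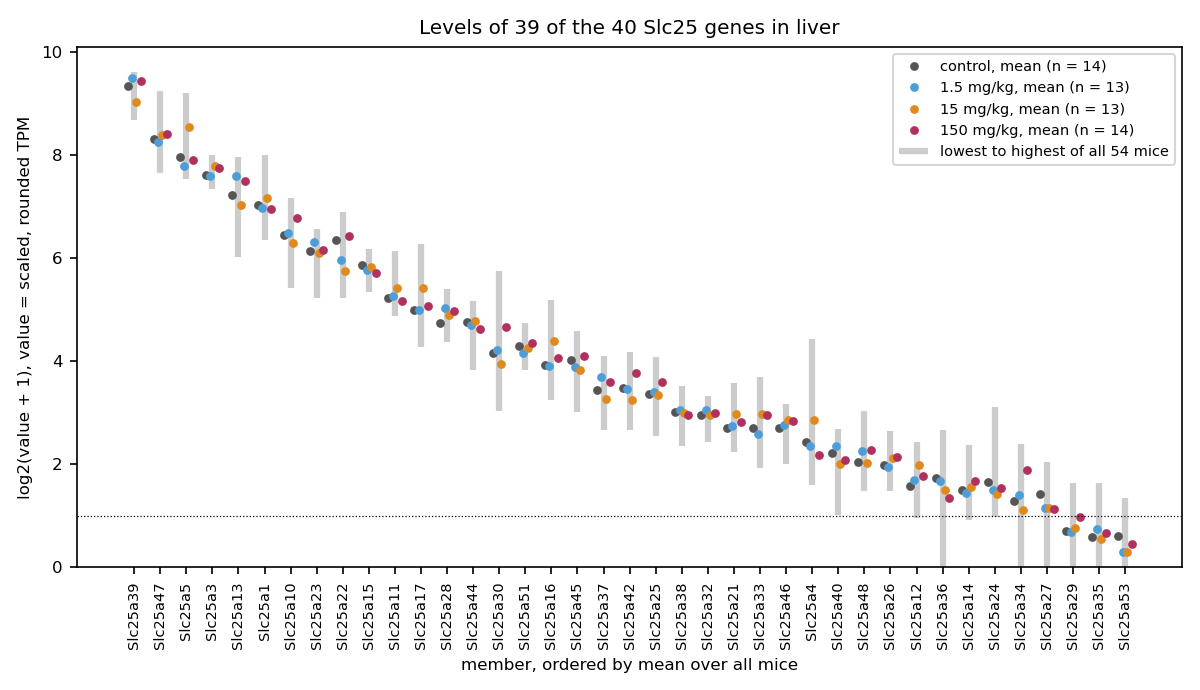
Mean level of 39 of the 40 members in the 4 groups (points, 14, 13, 13 and 14 mice) with the lowest and highest of all 54 mice (grey bars), as log2(value + 1), the value being scaled and rounded TPM. Slc25a39 lies at the top and Slc25a29, Slc25a35 and Slc25a53 lie below the dotted line, which marks a value of 1.

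The question of the design was how each dose differed from control, and few members did. At 1.5 mg/kg 2 of 37 members passed the test (5.41%, against 1.2% of all genes tested). Of these 1 rose (0.674% of all genes) and 1 fell (0.525%), and neither was a DEG (0.367% of all genes). At 15 mg/kg 3 members rose (7.57% of all genes) and 3 fell (6.61%), in total 16.2% against 14.2% of all genes, a share close to that of the whole table. Of these 6, 2 were DEGs (3.72% of all genes). At 150 mg/kg 2 members rose (1.49% of all genes) and none fell (0.682%), in total 5.41% against 2.17%, and 1 was a DEG (0.84% of all genes). At an unadjusted limma p under 0.05, 7 of 37 members were higher and 2 lower, against 843 and 761 of 11431 genes. The median log2FC of the 37 members was 0.003 at 1.5, -0.02 at 15 and 0.10 at 150 mg/kg, where the median of all genes was 0.003, -0.001 and -0.008. At the highest dose 26 members had a positive log2FC and 11 a negative one, against 5512 and 5918 of all genes tested. The 3 comparisons share the same control mice.

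The dose groups were also compared with each other, and these differences take no value of the control mice, although all 4 groups share 1 estimate of the spread. Between 15 and 150 mg/kg 13 members passed (35.1% against 20% of all genes), 10 of them lower (9.85% of all genes) and 3 higher at 15 mg/kg (10.1%). Between 1.5 and 15 mg/kg 7 passed (18.9% against 21.4%), 4 of them higher (10.5% of all genes) and 3 lower at 1.5 mg/kg (10.9%). Between 1.5 and 150 mg/kg 2 passed (5.41% against 4.61%), both lower at 1.5 mg/kg (2.55% of all genes) and none higher (2.06%). Without the 7 libraries that stood apart, 5 members passed between 15 and 150 mg/kg, all lower at 15 (13.5% against 8.79% of all genes), and 2 passed between 15 mg/kg and control (5.41% against 4.3%).

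**Figure D2:**
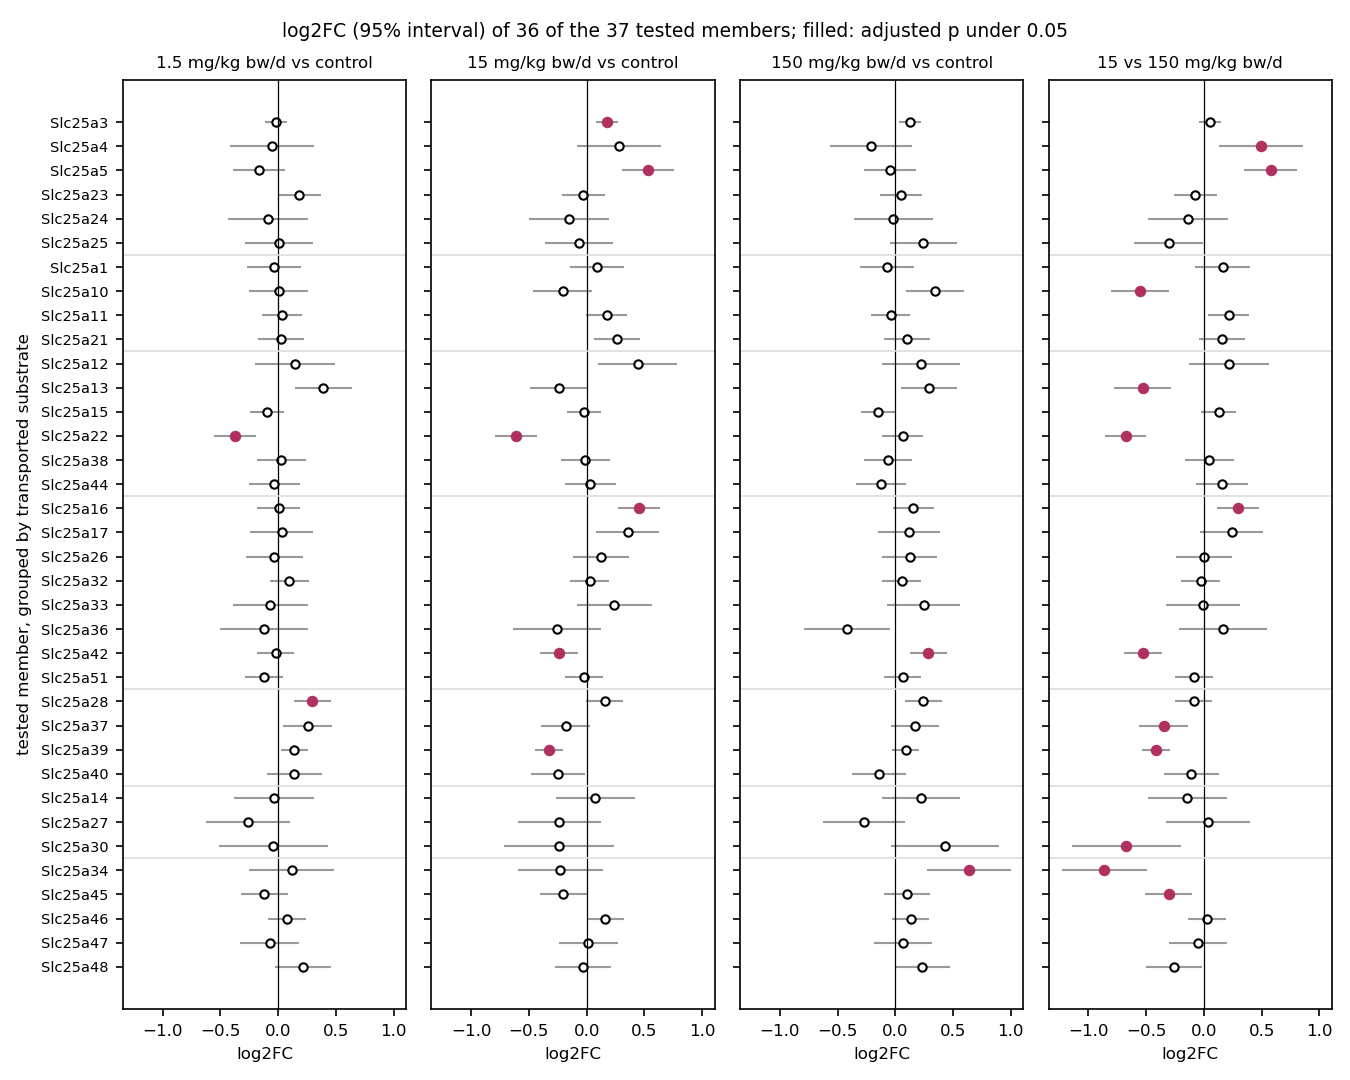
The log2FC of 36 of the 37 tested members with 95% intervals in 4 comparisons, grouped from top to bottom by the kind of substrate, filled where the adjusted p was under 0.05. Slc25a22 is filled on the lower side at 1.5 and 15 mg/kg, Slc25a34 and Slc25a42 are filled on the higher side at 150 mg/kg, and the comparison of 15 with 150 mg/kg holds 12 filled points.

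Among the carriers of amino acids (6 tested), Slc25a22 fell at both lower doses. Slc25a22 carries glutamate together with a proton into the matrix, where glutamate dehydrogenase can release its nitrogen. Its lowest, median and highest values were 68.0, 75.6 and 104 in control mice and 53.8, 60.9 and 70.6 at 1.5 mg/kg. At 15 mg/kg they were 36.1, 53.1 and 67.5, and at 150 mg/kg 59.5, 83.6 and 118. All 13 mice at 15 mg/kg lay below the lowest control mouse, and 12 of 13 did so at 1.5 mg/kg. Of all genes tested, 0.0262% were separated from control in that way at 15 mg/kg. At 150 mg/kg the range enclosed that of the control group. The log2FC was -0.38 (SE 0.09, adjusted p = 0.0240) at 1.5 and -0.61 (SE 0.09, adjusted p = 4.86e-06) at 15 mg/kg. At 150 mg/kg it was 0.07 (95% interval -0.11 to 0.24, adjusted p = 0.806). Slc25a22 was thus lower at 1.5 than at 150 mg/kg (log2FC -0.44, adjusted p = 0.00155) and lower at 15 than at 150 mg/kg (log2FC -0.68, adjusted p = 2.25e-07), whereas 1.5 and 15 mg/kg differed by 0.24 (adjusted p = 0.0537).

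The lower Slc25a22 value at 15 mg/kg did not rest on the libraries that stood apart. The 8 remaining mice lay between 47.1 and 63.1 and the 12 remaining control mice between 68.3 and 94.4, with a log2FC of -0.50 (adjusted p = 0.00115). The GC content of its longest annotated transcript was 57.6%, and at 15 mg/kg the median log2FC of all genes went from 0.05 in the fifth of genes with the lowest GC content to -0.09 in the fifth with the highest. With trends of GC content and length removed, its log2FC there was -0.48 (adjusted p = 0.000233). Slc25a13 (citrin), which exchanges aspartate for glutamate in the malate-aspartate shuttle, had medians of 156 in control, 192 at 1.5, 135 at 15 and 172 at 150 mg/kg. With all mice it passed against control at no dose and was higher at 1.5 than at 15 mg/kg (log2FC 0.63, adjusted p = 0.000230) and lower at 15 than at 150 mg/kg (-0.53, adjusted p = 0.00144). The 5 libraries that stood apart at 15 mg/kg held the 5 lowest values of that group, 63.8 to 99.5, and the other 8 lay between 124 and 214. Without the libraries that stood apart both differences missed the threshold (0.29, adjusted p = 0.0601, and -0.18, adjusted p = 0.245), whereas Slc25a13 was then higher than control at 1.5 mg/kg (0.31, adjusted p = 0.0329).

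**Figure D3:**
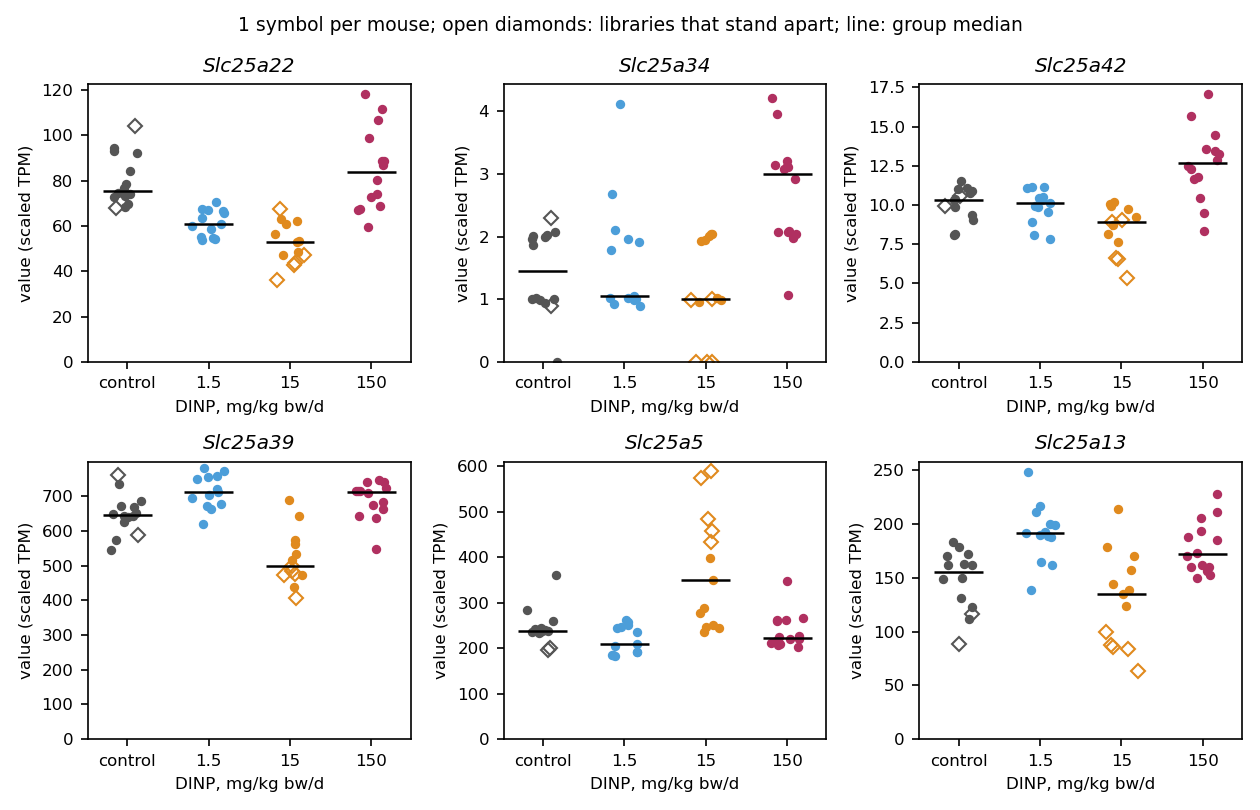
Value of 6 members (Slc25a22, Slc25a34, Slc25a42, Slc25a39, Slc25a5 and Slc25a13) in every mouse by DINP dose, in scaled TPM, with group medians (lines) and the 7 libraries that stood apart as open diamonds. All Slc25a22 points at 15 mg/kg lie below the lowest control point of 68.0, and the 5 diamonds at 15 mg/kg are the highest Slc25a5 points and the lowest Slc25a13 points of that group.

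Among the carriers of unsettled substrate or role (5 tested), Slc25a34 rose at the highest dose. Its lowest, median and highest values were 0, 1.45 and 2.29 in control mice and 0.894, 1.04 and 4.12 at 1.5 mg/kg. They were 0, 1.00 and 2.05 at 15 mg/kg and 1.06, 2.99 and 4.22 at 150 mg/kg. Before scaling these were whole numbers from 0 to 4. At 150 mg/kg 8 of 14 mice were at 3 or 4, against 1 of 14 control mice, and Slc25a34 was listed at 0 in 1 control mouse and in 3 mice at 15 mg/kg. Of the mice at 150 mg/kg 13 of 14 lay above the control median and 8 above the highest control mouse, so the groups overlapped. The log2FC at 150 mg/kg was 0.64 (SE 0.18, adjusted p = 0.0423) on the log2(value + 1) scale, which understates changes of genes this low. With a pseudocount of 0.1 the log2FC was 1.07 (adjusted p = 0.200), and the call was lost in 4 of 12 alternatives in all. It was also lost in 15 of the 54 fits without 1 mouse, with adjusted p up to 0.0847, namely without control replicates 2, 4, 7, 9, 10, 11 or 13 or without replicates 4, 5, 6, 7, 8, 10, 11 or 14 of the dose group. All 15 left out 1 of the 14 control mice or 14 mice at 150 mg/kg. Leaving out a mouse of another group keeps the log2FC.

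Against 150 mg/kg, Slc25a34 was lower at 15 mg/kg (log2FC -0.86, adjusted p = 0.000497). All 13 mice at 15 mg/kg lay below the median of the highest dose. The 3 mice at 0 were all among the libraries that stood apart, and without those libraries the log2FC was -0.49 (adjusted p = 0.0763). Slc25a45, listed in the same group and at a mean of 14.6, was lower at 15 than at 150 mg/kg (-0.30, adjusted p = 0.0255). That difference was lost without the libraries that stood apart (-0.20, adjusted p = 0.238), and also without replicate 2 (adjusted p = 0.0504) or replicate 7 (adjusted p = 0.0674) of the 15 mg/kg group. Slc25a47, a carrier expressed mainly in liver, had medians of 312, 284, 299.6 and 343 in control and rising dose and passed in none of the 6 comparisons (adjusted p from 0.620 to 0.963). Its median at 15 mg/kg was 397 in the 5 libraries that stood apart and 241 in the other 8, and without the libraries that stood apart its log2FC against control was -0.26 (adjusted p = 0.294). One gene overlaps it on the same strand, the miRNA gene Mir345.

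Among the carriers of cofactors and nucleotides (9 tested), Slc25a42 was the member that lay lower at 15 and higher at 150 mg/kg. It exchanges coenzyme A, which the matrix needs to activate fatty acids, for adenine nucleotides. Its lowest, median and highest values were 8.11, 10.3 and 11.5 in control mice and 7.85, 10.1 and 11.2 at 1.5 mg/kg. They were 5.32, 8.94 and 10.2 at 15 mg/kg and 8.36, 12.7 and 17.1 at 150 mg/kg. All 13 mice at 15 mg/kg lay below the control median and 11 of 14 at 150 mg/kg lay above the highest control mouse. Slc25a42 fell at 15 mg/kg (log2FC -0.24, SE 0.08, adjusted p = 0.0389) and rose at 150 mg/kg (0.29, SE 0.08, adjusted p = 0.0380). The direct difference between both doses was -0.53 (adjusted p = 4.78e-06), and it was -0.40 (adjusted p = 0.00113) without the libraries that stood apart. The fall against control at 15 mg/kg did not hold without those libraries (-0.11, adjusted p = 0.545) or with trends of GC content and length removed (-0.15, adjusted p = 0.269). It was also lost in 11 of 54 fits without 1 mouse (adjusted p up to 0.0878), namely without control replicates 3, 6, 7, 9, 11, 12 or 14 or without replicates 1, 6, 7 or 8 at 15 mg/kg. The rise at 150 mg/kg was lost in 14 of these fits (adjusted p up to 0.0820), namely without control replicates 2, 4, 5, 8, 10 or 13 or without replicates 4, 5, 7, 8, 9, 12, 13 or 14 of the dose group. Both calls were lost only without mice of the groups compared (14 control, 13 at 15 and 14 at 150 mg/kg). The rise was also lost in 4 of 13 alternatives (adjusted p up to 0.183), namely no filter, quantile normalization, the same total in every library and a replicate block.

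Slc25a16, which has also been linked to coenzyme A in the matrix, rose at 15 mg/kg (0.45, SE 0.09, adjusted p = 0.000409). Its lowest, median and highest values were 8.41, 14.5 and 18.7 in control mice and 15.1, 19.4 and 35.4 at 15 mg/kg. All 13 mice lay above the control median and 7 above the highest control mouse. It was lower at 1.5 than at 15 mg/kg (-0.45, adjusted p = 0.000352), and this difference was -0.29 (adjusted p = 0.00951) without the libraries that stood apart. Against control it was then 0.20 (adjusted p = 0.111). At 15 mg/kg it was also higher than at 150 mg/kg (0.30, adjusted p = 0.0146), a difference of 0.14 (adjusted p = 0.236) without those libraries.

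All 4 carriers of iron or glutathione were tested, and Slc25a39 fell at 15 mg/kg. Slc25a39 and its relative Slc25a40 bring glutathione into the matrix, where it buffers oxidants. The lowest, median and highest Slc25a39 values were 544, 646 and 761 in control mice and 620, 712 and 781 at 1.5 mg/kg. They were 407, 499 and 688 at 15 mg/kg and 549, 713 and 746 at 150 mg/kg. At 15 mg/kg 9 of 13 mice lay below the lowest control mouse and 12 below the control median. The log2FC was -0.33 (SE 0.06, adjusted p = 0.000123), and -0.23 (adjusted p = 0.0299) without the libraries that stood apart. Slc25a39 was also higher at 1.5 than at 15 mg/kg (0.47, adjusted p = 4.96e-07) and lower at 15 than at 150 mg/kg (-0.42, adjusted p = 1.22e-06). Both held without those libraries (0.38, adjusted p = 0.000172, and -0.33, adjusted p = 0.000326). Slc25a40, at a mean of 3.49, was higher at 1.5 than at 15 mg/kg (0.39, adjusted p = 0.0164), with a difference of 0.40 (adjusted p = 0.0678) once the libraries that stood apart were left out.

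The iron importers Slc25a28 (mitoferrin-2) and Slc25a37 (mitoferrin-1) differed in other comparisons. Slc25a28 rose at 1.5 mg/kg (0.30, SE 0.08, adjusted p = 0.0460), from a median of 26.4 (19.7 to 29.6) in control mice to 32.3 (24.8 to 36.7), and 9 of 13 mice lay above the highest control mouse. Its log2FC was 0.16 (adjusted p = 0.203) at 15 mg/kg, or 0.06 (adjusted p = 0.749) without the libraries that stood apart, and 0.24 (adjusted p = 0.0898) at 150 mg/kg. The call at 1.5 mg/kg lay next to the threshold and was lost in 26 of 54 fits without 1 mouse (adjusted p up to 0.09998). These were the fits without control replicates 1 or 3 to 12, without replicates 2, 3 or 5 to 13 at 1.5 mg/kg, or without replicates 1, 3, 5 or 8 at 150 mg/kg. Leaving out a mouse at 15 or 150 mg/kg kept the log2FC at 0.30 and moved only the adjusted p. The call was also lost in 5 of 13 alternatives (adjusted p up to 0.0776), and it passed without the libraries that stood apart (0.29, adjusted p = 0.0163). Slc25a37, which supplies iron for heme and is highest in erythroid cells, was higher at 1.5 than at 15 mg/kg (0.44, adjusted p = 0.00256) and lower at 15 than at 150 mg/kg (-0.35, adjusted p = 0.0139). Neither held without the libraries that stood apart (0.23, adjusted p = 0.197, and -0.14, adjusted p = 0.460). All 6 erythroid markers were in the table and 4 were tested, with summed values of 323 to 2192 in control, 250.006 to 1006 at 1.5, 271 to 1506 at 15 and 304 to 2898 at 150 mg/kg. The part of blood cells in the Slc25a37 values was not tested.

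Among the carriers of adenine nucleotides and phosphate (6 tested), Slc25a5 and Slc25a3 rose at 15 mg/kg. Slc25a5 is a widely expressed adenine nucleotide translocase, and Slc25a3 imports phosphate for ATP synthesis. The lowest, median and highest Slc25a5 values were 195, 239 and 362 in control mice and 183, 209 and 261 at 1.5 mg/kg. They were 235, 349 and 590 at 15 mg/kg and 202, 222 and 347 at 150 mg/kg. The log2FC at 15 mg/kg was 0.53 (SE 0.11, adjusted p = 0.000893). The 5 libraries that stood apart at 15 mg/kg lay between 433 and 590, above every other mouse, while the other 8 lay between 235 and 398. Without the libraries that stood apart the log2FC was 0.16 (adjusted p = 0.417) against control and 0.26 (adjusted p = 0.0807) against 150 mg/kg, where all mice had given 0.58 (adjusted p = 0.000188). Only the difference between 1.5 and 15 mg/kg passed in both fits, at -0.70 (adjusted p = 2.29e-05) with all mice and -0.37 (adjusted p = 0.0115) without those libraries. A pseudogene, Slc25a5-ps, is also in the table, and reads could be split between it and Slc25a5.

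Slc25a3 was the least variable member with a mean of at least 10 in control mice, with a coefficient of variation of 5.70%. Its lowest, median and highest values were 174, 195 and 216 in control mice and 191, 212 and 255 at 15 mg/kg, a log2FC of 0.18 (SE 0.05, adjusted p = 0.00834). It was 0.09 (adjusted p = 0.330) without the libraries that stood apart. The rise was also lost with quantile normalization and with the same total in every library, and the lowest log2FC of the alternatives was 0.08. Slc25a3 was also lower at 1.5 than at 15 mg/kg (-0.20, adjusted p = 0.00240), which became -0.12 (adjusted p = 0.128). Slc25a4, the translocase of heart and muscle, was higher at 15 than at 150 mg/kg (0.49, adjusted p = 0.0441). Its highest value, 20.4, was in replicate 2 at 15 mg/kg, the mouse with the highest sum of the 4 skeletal muscle markers (224). The next highest sums were 74.4 in control replicate 2 and 42.3 in replicate 12 at 15 mg/kg, where Slc25a4 was 5.10 and 5.03. The next highest Slc25a4 values were 10.7 in control replicate 8 and 10.6 in replicate 7 at 15 mg/kg, with sums of 0.764 and 0. The part of muscle in the Slc25a4 values was not tested. The median sum was 0 in every group. Without replicate 2 of that group the adjusted p of Slc25a4 was 0.116. The call was lost in 13 fits without 1 mouse, those without replicates 2, 4, 5, 7 or 9 at 15 mg/kg or without replicates 1, 2, 5, 7, 8, 9, 12 or 14 at 150 mg/kg, and also without the libraries that stood apart (0.42, adjusted p = 0.156).

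Of the 4 carriers of di- and tricarboxylates, Slc25a10 passed in 1 comparison. Slc25a10 exchanges malate or succinate for phosphate and supplies gluconeogenesis and lipid synthesis. Its lowest, median and highest values were 65.7, 84.7 and 108 in control mice and 56.3, 87.5 and 136 at 1.5 mg/kg. They were 41.8, 81.8 and 127 at 15 mg/kg and 91.3, 108 and 143 at 150 mg/kg. At 15 mg/kg 10 of 13 mice lay below the lowest mouse at 150 mg/kg, a log2FC of -0.55 (SE 0.13, adjusted p = 0.00114). Without the libraries that stood apart it was -0.74 (adjusted p = 0.000179). Against control it was -0.21 (adjusted p = 0.290) at 15 mg/kg, or -0.45 (adjusted p = 0.0531) without those libraries, and 0.34 (adjusted p = 0.145) at 150 mg/kg. Among the 3 carriers related to uncoupling proteins, Slc25a30 was lower at 15 than at 150 mg/kg (-0.67, SE 0.24, adjusted p = 0.0360). It was the most variable member with a mean of at least 10 in control mice (coefficient of variation 38.2%), and its ranges were 7.12 to 28.4 at 15 and 12.3 to 53.0 at 150 mg/kg. That call held without the libraries that stood apart (-0.96, adjusted p = 0.0139). It was lost in 9 fits without 1 mouse (adjusted p up to 0.0748), namely without replicates 2, 9, 11, 12 or 13 at 15 mg/kg or without replicates 2, 7, 13 or 14 at 150 mg/kg. The call was also lost in 4 of 13 alternatives (adjusted p up to 0.128). These were no filter, the same total in every library, the 2 groups compared alone and the rank-sum test.

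**Figure D4:**
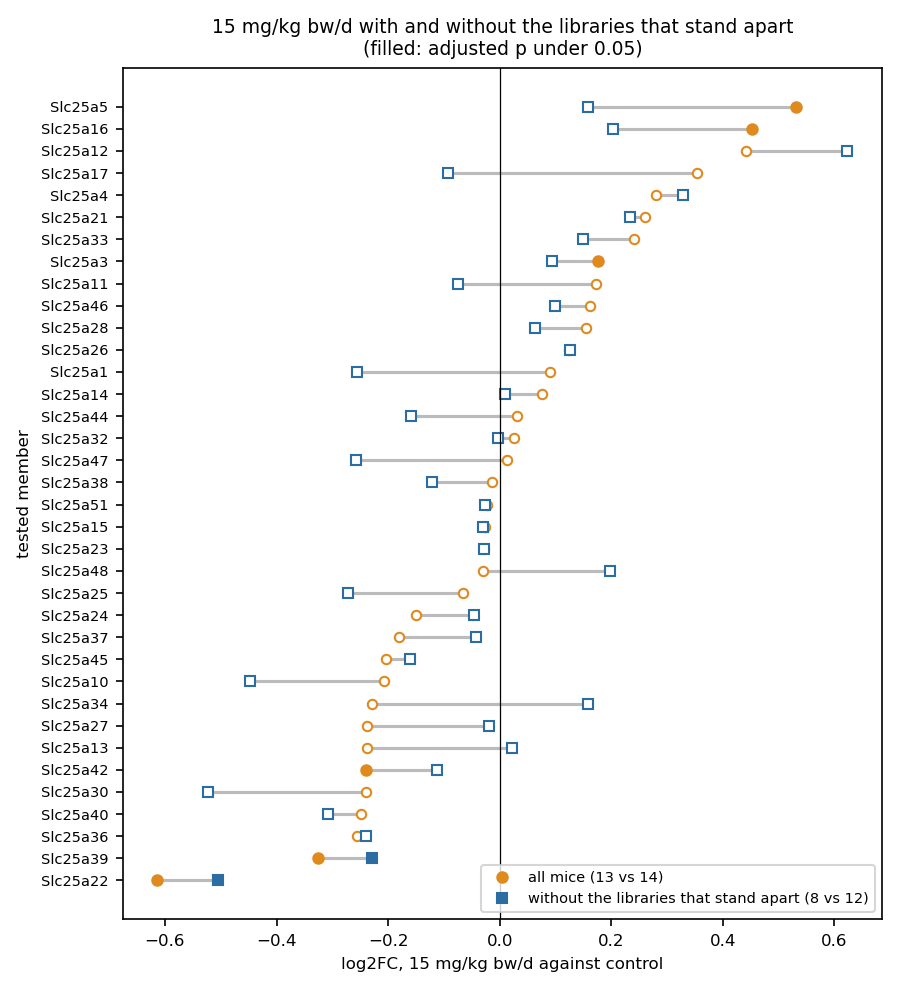
The log2FC of 36 of the 37 tested members at 15 mg/kg against control with all mice (circles, 13 against 14) and without the 7 libraries that stood apart (squares, 8 against 12), filled where the adjusted p was under 0.05. Slc25a22 and Slc25a39 are the 2 members with filled squares, and Slc25a5 moves from 0.53 to 0.16.

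Slc25a22 and Slc25a34 passed against control at different doses. Slc25a22 fell at 1.5 and 15 mg/kg, where Slc25a34 had a log2FC of 0.12 (95% interval -0.25 to 0.49) and -0.23 (-0.60 to 0.14). Without the libraries that stood apart the value at 15 mg/kg had the other sign (0.16, -0.22 to 0.53). Slc25a34 rose at 150 mg/kg, where the interval of Slc25a22 was -0.11 to 0.24. At no dose did both pass against control. In the direct comparison of 15 with 150 mg/kg both were lower at 15 mg/kg, as was Slc25a42. Of the 3, Slc25a22 and Slc25a42 passed that comparison with and without the libraries that stood apart.

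The machinery that inserts carriers and the enzymes that use their substrates were counted from lists, and at 15 mg/kg 14.2% of all genes passed, 7.57% higher and 6.61% lower. None of the 13 tested genes of carrier import passed the limma test at 1.5 or 150 mg/kg, and 0 had an unadjusted p under 0.05 there. At 15 mg/kg 5 of the 13 passed, of which 4 rose (Timm10, Timm8b, Tomm20 and Tomm22, log2FC 0.25 to 0.44) and 1 fell, Tomm40, the channel of the outer membrane translocase (-0.38, adjusted p = 0.00789). Without the libraries that stood apart none of the 13 passed, and 2 (Timm13 and Tomm40) had an unadjusted p under 0.05. Of 16 other mitochondrial transporters 4 rose at 15 mg/kg, among them both subunits of the pyruvate carrier (Mpc1 0.59 and Mpc2 0.49), and the calcium uniporter pore Mcu fell (-0.63, adjusted p = 0.00284). Of these 5, none passed without the libraries that stood apart, where Sfxn2 did (0.34, adjusted p = 0.0395). Of 15 enzymes of glutamate use, the urea cycle and the malate-aspartate shuttle, 2 passed at 15 mg/kg, a share close to that of all genes, and both rose (Mdh1 0.40 and Otc 0.42). Both held without those libraries (0.30, adjusted p = 0.00810, and 0.37, adjusted p = 0.00353). Ass1 then passed as well (0.62, adjusted p = 0.0241). Of 3 SLC25 proteins under other symbols, Mtch1, an outer membrane relative of the carriers, fell at 15 mg/kg (-0.51, adjusted p = 5.57e-05) and still did so without those libraries (-0.31, adjusted p = 0.0350).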

How the data were processed

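Livers were perfused and total RNA was sequenced with a stranded 3′-end protocol in 54 mice (1 library per mouse, 1 column each). Per the labels and the methods, the authors aligned to GRCm38 with STAR and estimated expression with RSEM or Salmon. The deposited signal values were whole numbers, close to TPM (whole sums 948342 to 980641), divided by a factor per library. Every value was a whole multiple (tolerance 0.001) of the smallest step (0.764 to 1.11). The deposited values are not read counts, since the median variance-to-mean ratio of 2644 low genes was 0.366, so no count test or counting interval was computed and the depth is unknown. Each value was log2(value + 1) transformed and tested with limma 3.58.1 in R 4.3.3, with 4 groups in 1 fit, an eBayes trend and no covariate, after a filter on a mean of at least 1. Benjamini-Hochberg adjustment ran over all 11431 entries within each of 6 contrasts, and the sign of a difference is the first group named minus the second. The fit was tested on simulated data with independent normal noise, without rounding to whole numbers and without libraries that stand apart. That test does not cover these features of the data. Named genes were Slc25a22, Slc25a34 and Slc25a42, every member that passed a contrast, the 5 members with the highest level and the member with the smallest p in each substrate group. The members, lists and tests were chosen with earlier results of these data known. Alternatives were other pseudocounts and filters, other scalings, other models, a rank-sum test, a replicate block, each mouse left out and, chosen after seeing the data, removal of trends of GC content and transcript length and of the libraries that stood apart. Coordinates came from GENCODE M21 (GRCm38) and promoters from RefSeq (GRCm38.p6, 31 of 40 members matched). Among the members named here, Slc25a3, Slc25a16, Slc25a37, Slc25a39 and Slc25a47 overlap another gene on the same strand, and Slc25a4 and Slc25a5 are similar in sequence, so reads could be shared there. Slc25a10, Slc25a16, Slc25a35, Slc25a37 and Slc25a53 overlap a gene on the other strand, whose reads a stranded protocol keeps apart if the strand is used in counting. A member is counted in the totals and not reported here by itself, and the figures leave it out.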

Additional observations from a re-analysis of the deposited data

Results flagged for a closer look

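In all, 9 differences between dose groups were singled out because a direct test of the difference between the doses passed with a log2FC beyond 0.5. Between 1.5 and 15 mg/kg these were Slc25a13 (0.63, higher at 1.5) and Slc25a5 (-0.70, lower at 1.5). They were 2 of 37 members, against 817 of 11431 genes that passed both thresholds. Between 15 and 150 mg/kg 6 members were lower at 15 mg/kg, Slc25a34 (-0.86), Slc25a22 (-0.68), Slc25a30 (-0.67), Slc25a10 (-0.55), Slc25a13 (-0.53) and Slc25a42 (-0.53), and Slc25a5 was higher (0.58). In that comparison 7 of 37 members passed both thresholds, against 769 of 11431 genes. Between 1.5 and 150 mg/kg 0 of 37 members did, against 187 of 11431 genes. Without the 7 libraries that stood apart the differences of Slc25a22, Slc25a30 and Slc25a10 between 15 and 150 mg/kg still passed both thresholds. Those of Slc25a42 between 15 and 150 mg/kg (-0.40) and of Slc25a5 between 1.5 and 15 mg/kg (-0.37) passed only the adjusted p. Between 15 and 150 mg/kg, Slc25a13, Slc25a34 (-0.49, adjusted p = 0.0763) and Slc25a5 (0.26, adjusted p = 0.0807) did not pass the adjusted p. Neither did Slc25a13 between 1.5 and 15 mg/kg (0.29, adjusted p = 0.0601). Whether the libraries that stood apart share a batch was not tested, since the labels give none.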

How the results depend on the processing

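Of 32 combinations of a member and a comparison that passed, 10 passed under every alternative and in every fit without 1 mouse, and none changed sign. Among results that had not passed, 222 of 12669 values under an alternative had the other sign. Many of these values could not change sign, because the setting keeps the log2FC of the main fit. This holds for the rank-sum test, robust eBayes, the fit of the compared groups alone and any fit without a mouse of another group. The counts of sign changes are therefore not a measure of stability. The largest shifts came from leaving out the 7 libraries that stood apart, chosen after seeing the data. The number of members that passed was then 3 instead of 2 at 1.5 mg/kg (8.11% against 3.09% of all genes, Slc25a13 added). At 15 mg/kg it was 2 instead of 6 (5.41% against 4.3% of all genes, 1 DEG instead of 2). It was 3 instead of 7 between 1.5 and 15 mg/kg (8.11% against 6.81%). Between 15 and 150 mg/kg it was 5 instead of 13 (13.5% against 8.79%), and between 1.5 and 150 mg/kg 4 instead of 2 (10.8% against 7.36%). With GC and length trends removed 1 member passed at 1.5 mg/kg and the DEGs at 15 mg/kg numbered 0. At 1.5 mg/kg 1 member instead of 2 also passed with no filter, with quantile normalization and with the same total in every sample, and both of these scalings left 1 DEG at 15 mg/kg. At 150 mg/kg 0 members passed with no filter and 1 did with a pseudocount of 0.1 or a mean of at least 5 (Slc25a42), quantile normalization (Slc25a34) or the same total (Slc25a15, which fell, named after its value was seen), and 4 with the Wilcoxon rank-sum test. The 1 DEG there became 0 with a pseudocount of 0.1 or 5, no filter, a mean of at least 5 or the same total. Between 1.5 and 150 mg/kg 4 members passed with array quality weights and with the rank-sum test, which passed 8 between 15 and 150 mg/kg. The cause of these differences was not tested. Counts given without the share of all genes show how calls moved with the setting and are not a result about the family. Slc25a4, Slc25a34 and Slc25a40 could not be tested with a mean of at least 5. Leaving out each mouse gave 1 to 2 members at 1.5, 5 to 7 at 15 and 0 to 2 at 150 mg/kg, 0 to 0, 1 to 3 and 0 to 1 DEGs, and 7 to 10 (1.5 against 15), 2 to 3 (1.5 against 150) and 10 to 14 (15 against 150) between doses.

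With the replicate number as a block, 0 members passed at 1.5 and 0 at 150 mg/kg (0 DEGs), 5 at 15 mg/kg and 11 between 15 and 150 mg/kg. The adjusted p of Slc25a22 at 1.5 mg/kg was then 0.0616. Deviations of same-numbered mice from their group means had a mean correlation of -0.002 over 79 pairs (-0.36 to 0.24), with 12.7% above 0.1. Mice with different numbers were not compared in this way, so whether some numbers share a factor was not tested. The unknown number of reads limits members with values near 1, Slc25a34 above all, whose 4 groups spanned 0 to 4 whole units.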
